A study of Mus musculus with 18 samples.

Results

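Interleukin 33 (IL-33) is sensed by a receptor of 2 chains, and the genes of both chains, Il1rl1 and Il1rap, were followed through mouse erythroid progenitors. They were found by symbol, as 2 of the 24072 genes in the count table of the spleen populations and 2 of the 10702 genes in the count table of the 2 BFU-E populations. In the lists of accessible regions, 1 of 61661 intervals from stress spleen BFU-E and 1 of 35142 from BM BFU-E carried the name of a member, Il1rap in both. Both genes were picked with earlier results of these data in view, among them the difference of Il1rl1 between stress spleen BFU-E and MPP, so their levels in the spleen populations are a description, without a test.

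The populations were stress spleen MPP (multipotent progenitors, titled Sca-pos), stress spleen BFU-E (burst-forming erythroid progenitors, titled Sca-neg) and stress spleen CFU-E (colony-forming erythroid progenitors, titled CD9-neg), and BFU-E sorted from the marrow of mice at steady state (BM BFU-E, titled Sca-neg). All came from mice of B6SJL background. The spleens were taken on day 8 after lethal irradiation and a transplant of unfractionated marrow; age and genotype are not given in the sources used here. RNA was sequenced from 3 libraries of each population, and ATAC-seq, which reads accessible chromatin by transposase insertion, from 3 libraries of each BFU-E population. The cells were defined by surface antigens alone, and tissue, irradiation and the staining used for the sort change together between the BFU-E populations, so their parts in a difference cannot be told apart. Nothing in the labels says that the 3 libraries came from separate animals, and a p-value therefore measures the spread between these libraries only.

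Il1rl1 encodes ST2, the chain that binds IL-33, and is made both as a membrane receptor and as a shorter soluble form that holds IL-33 away from cells. Il1rap encodes the co-receptor that ST2 needs for signalling and that the receptors for IL-1 and IL-36 share. Together they recruit the adaptor MyD88 and IRAK kinases, and through TRAF6 they activate NF-kB and MAP kinases. ST2 is best known on mast cells, basophils, type 2 innate lymphoid cells and regulatory T cells, and in mice IL-33 has been reported to hold back erythroid progenitors during inflammation.

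Il1rl1 lies on the plus strand of chromosome 1 (mm10, chr1:40439629-40465414, the transcript NM_001025602 that the authors counted, 5286 bases of exon). RefSeq places 3 transcripts there, with 2 starts. The transcripts NM_001025602.3 and NM_010743.3 begin at position 40439629, and the second of them ends early, at 40448411; NM_001294171.1 begins upstream at 40429570 and ends at 40448411 as well. The upstream start is the one known in mast cells, with GATA elements before it. The 250 bases before each start are shown because the search for GATA letters, AGATAA and TGATAA on either strand, turned on them; capitals mark the matches (RefSeq, GRCm38.p6, plus strand).
Il1rl1 upstream start, chr1:40429320-40429569: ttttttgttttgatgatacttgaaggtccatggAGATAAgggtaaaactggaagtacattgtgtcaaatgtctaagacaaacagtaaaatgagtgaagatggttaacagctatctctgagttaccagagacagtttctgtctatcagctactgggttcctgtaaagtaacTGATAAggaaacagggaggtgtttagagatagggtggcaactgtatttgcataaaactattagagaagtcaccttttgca
Il1rl1 downstream start, chr1:40439379-40439628: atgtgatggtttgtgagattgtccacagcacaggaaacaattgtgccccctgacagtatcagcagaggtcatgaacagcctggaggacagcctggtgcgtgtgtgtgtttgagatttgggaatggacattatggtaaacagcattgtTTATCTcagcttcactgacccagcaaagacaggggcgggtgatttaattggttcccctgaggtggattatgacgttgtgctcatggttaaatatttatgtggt
The upstream window held AGATAA at -217 to -212 and TGATAA at -80 to -75, counted from the start, and the downstream window held AGATAA on the minus strand at -103 to -98, printed above as its complement. Among 32841 RefSeq promoter windows of the same length, 9.99% held AGATAA and 7.94% held TGATAA.

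Il1rap lies on the plus strand of chromosome 16 (mm10, chr16:26581705-26717748, NM_008364, 4563 bases of exon). Its 4 RefSeq transcripts share the start at 26581705, and NM_134103.2 ends early, at 26702354. Its window is shown for contrast with those of Il1rl1; capitals would mark GATA letters and there are none.
Il1rap start, chr16:26581455-26581704: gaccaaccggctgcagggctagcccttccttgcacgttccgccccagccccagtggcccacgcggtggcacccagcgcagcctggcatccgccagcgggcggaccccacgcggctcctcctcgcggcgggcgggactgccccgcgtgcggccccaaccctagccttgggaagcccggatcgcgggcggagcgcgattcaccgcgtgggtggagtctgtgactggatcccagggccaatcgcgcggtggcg
It held 1 match to the NF-kB letters, GGGA, any 4 bases and CC, at -119 to -110 on the plus strand, as did 17.6% of promoter windows. A match is a run of letters and not a shown site.

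Il1rl1 was higher in each later population of the spleen series. In MPP it had 32, 0 and 23 counts, in BFU-E 160, 177 and 265, and in CFU-E 1035, 901 and 995. The 3 populations did not overlap in any pairing. The 0 in the second MPP library came from a total of 5937778 counts, where a count of 0 allows up to 3 counts; that limit covers counting error only. Per gene length and library size, the level averaged 0.194 ± 0.169 RPKM in MPP, 1.69 ± 0.440 RPKM in BFU-E and 8.71 ± 0.801 RPKM in CFU-E (SD, n = 3 each).

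In the edgeR fit over the 3 spleen populations, the log2 fold change of Il1rl1 was 3.04 (SE 0.44) for BFU-E over MPP, an 8.25-fold difference. It was 2.39 (SE 0.37) for CFU-E over BFU-E, a 5.24-fold difference. CFU-E over MPP gave 5.43 (SE 0.46), a 43.2-fold difference. As a background, libraries without overlap on the higher side were found for 10.5% of the 10166 genes tested in BFU-E over MPP, 18.2% in CFU-E over BFU-E and 19.1% in CFU-E over MPP, and edgeR called 2.03%, 9.17% and 12.7% of genes higher at an adjusted p under 0.05. Since earlier results of the first of these contrasts led to the choice of Il1rl1, nothing is read from its place among those shares. These are values of mixed RNA, in which more cells with the transcript and more transcript per cell cannot be told apart.

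Il1rap had another course. It had 246, 50 and 135 counts in MPP, 169, 204 and 190 in BFU-E, and 126, 46 and 129 in CFU-E. Its level averaged 1.85 ± 0.759 RPKM in MPP, 1.84 ± 0.300 RPKM in BFU-E and 1.04 ± 0.507 RPKM in CFU-E (SD, n = 3 each). The BFU-E libraries lay within the MPP range, at 1.569, 2.163 and 1.789 RPKM against 2.465, 0.999 and 2.074 RPKM in MPP. The CFU-E libraries, at 1.232, 0.467 and 1.427 RPKM, all lay below the BFU-E ones and overlapped those of MPP. In CPM (counts per library total, adjusted by TMM factors), the scale of the fit, CFU-E and BFU-E overlapped as well, at up to 13.1 CPM in CFU-E and from 12.6 CPM in BFU-E. The log2 fold change was 0.03 (SE 0.45) for BFU-E over MPP, -0.80 (SE 0.46) for CFU-E over BFU-E and -0.76 (SE 0.46) for CFU-E over MPP.

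The balance of the chains was thus different in each spleen population. The ratio of Il1rl1 to Il1rap RPKM was 0.112, 0 and 0.147 in MPP, 0.817, 0.749 and 1.20 in BFU-E, and 7.09, 16.9 and 6.66 in CFU-E. By RPKM, Il1rap was the more abundant in every MPP library, the genes were near parity in BFU-E, and Il1rl1 was the more abundant in every CFU-E library. The counts pool each gene over the exons of 1 transcript, so they do not separate the forms that end early from the longer ones. The ratio is therefore one of RNA over all forms and gives no balance of membrane receptor chains.

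The Il1rap values carry a limit of their own. The gene model Gm20319 lies on the opposite strand and shares 353 exon bases with it, and the counting strand is not stated, so reads over those bases cannot be assigned to one of the pair. Gm20319, looked up after the Il1rap values were seen, had 4.715, 1.007 and 2.711 RPKM in MPP, 0.702, 1.069 and 3.641 RPKM in BFU-E, 2.959, 0 and 3.254 RPKM in CFU-E, and 20.2, 7.433 and 0 RPKM in BM BFU-E. The libraries stood in the same order for both genes in 3 of the 4 populations, BFU-E of stress spleen being the exception. The part of the overlap in the Il1rap values was not tested. No gene model of the annotation overlaps Il1rl1.

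**Figure D1:**
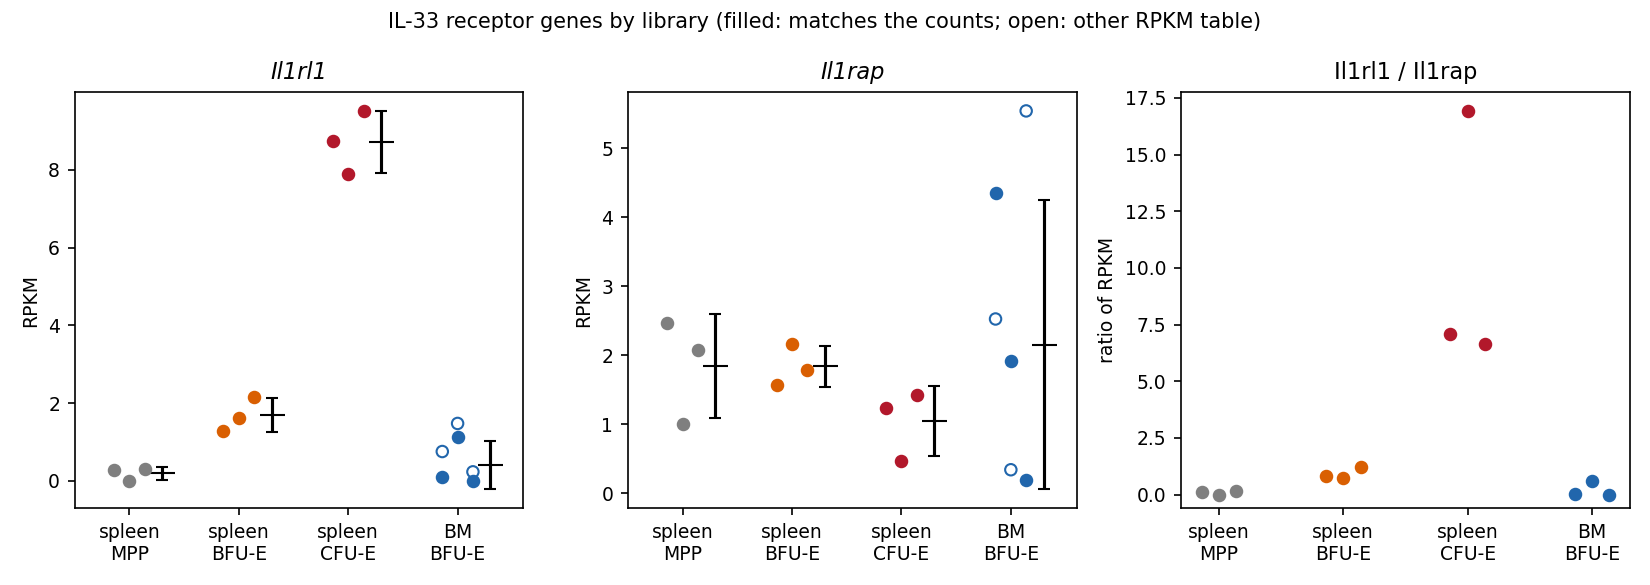
RPKM of Il1rl1 (left) and Il1rap (middle) and the ratio of their RPKM (right) in each library of the 3 stress spleen populations and of BM BFU-E; bars are mean ± SD of the filled points (n = 3). Filled points come from the columns that follow the raw counts and open points are the BM columns of the other deposited RPKM table; Il1rl1 lies between 7.899 and 9.501 RPKM in CFU-E and at or below 2.154 RPKM in every other library, while Il1rap shows no such order.

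Against steady-state marrow, the Il1rl1 libraries stood apart in counts but did not pass the test. Stress spleen BFU-E had 160, 177 and 265 counts, against 9, 91 and 0 in BM BFU-E. The groups did not overlap, as was so on the higher side for 12.8% of the 10702 genes. The level was 16.7 ± 4.55 CPM in stress spleen BFU-E and 4.12 ± 6.31 CPM in BM BFU-E (SD, n = 3 each), and the log2 fold change was 2.01 (SE 1.63, edgeR adjusted p = 0.76). Without the second BM library it was 5.03, with an edgeR adjusted p of 0.18. Il1rl1 had reached this table through the stress spleen libraries, with a mean of 200.7 counts there and 33.3 in BM, under the mean of 50 that the authors required.

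Il1rap did not separate the BFU-E populations. It had 169, 204 and 190 counts in stress spleen BFU-E, against 342, 134 and 11 in BM BFU-E, so the 3 spleen libraries lay inside the BM range. The level was 15.7 ± 3.21 CPM in stress spleen BFU-E and 18.5 ± 17.8 CPM in BM BFU-E (SD, n = 3 each), with a log2 fold change of -0.23 (SE 1.01, edgeR adjusted p = 0.96). The sign turned without the first BM library, to 0.79.

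Few genes passed in this comparison. In all, edgeR called 12 of 10702 genes, which is 0.112%, at an adjusted p under 0.05, and 1053 had an unadjusted p under 0.05; DESeq2 called 685. The spread between libraries, as the biological coefficient of variation, was 0.704 in the fit of the BFU-E populations and 0.250 in that of the spleen populations.

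The RPKM of the members in BM also depends on which deposited table is read. In the RPKM table of the 6 BFU-E libraries, Il1rl1 had 0.099, 1.121 and 0 RPKM in BM and Il1rap 4.354, 1.912 and 0.187 RPKM. In the table of all 12 libraries the BM columns gave 0.756, 1.478 and 0.234 RPKM for Il1rl1 and 2.526, 0.34 and 5.543 RPKM for Il1rap. In the first table, 83.4% to 84.4% of BM genes with at least 200 counts lay within 1% of one constant times the counts per length, and in the second 0.709% to 0.806% did. The columns of the first table therefore stand for BM here. With the other BM columns the Il1rl1 libraries overlap, since 1.478 RPKM in BM is above 1.282 RPKM in a stress spleen BFU-E library.

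Mast cells and basophils, which make ST2, were looked for by a list of 15 genes. Their summed level was 3.62 to 8.95 RPKM in MPP, 5.79 to 15.4 RPKM in BFU-E, 10.5 to 11.1 RPKM in CFU-E and 3.22 to 75.5 RPKM in BM BFU-E. At least 1 RPKM in a library was reached by 4, 6, 3 and 6 of the 15 genes in that order. The tryptase Tpsb2 was listed at 0 in all 12 libraries, and the basophil protease Mcpt8 was listed at 0 in the 3 CFU-E libraries, in which Il1rl1 was highest. Fcer1a and Ms4a2, the chains of the IgE receptor, stayed at or below 0.819 and 2.002 RPKM in CFU-E, and the protease Cpa3 had 2.262, 0.322 and 3.4 RPKM there. The largest share of the CFU-E sum came from granzyme B (Gzmb, 5.954, 8.255 and 4.872 RPKM). Ms4a2, Cpa3 and Gzmb averaged 1.24, 1.99 and 6.36 RPKM in CFU-E, above 0.994, 1.72 and 3.70 RPKM in BFU-E and 0.398, 1.19 and 2.19 RPKM in MPP. Fcer1a and Mcpt8 went the other way, averaging 0.306 and 0 RPKM in CFU-E and 1.04 and 0.698 RPKM in BFU-E.

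In MPP and in both BFU-E populations the libraries stood in the same order for the list sum and Il1rl1 RPKM. Each order rests on 3 libraries. In MPP the sums were 3.645, 3.62 and 8.946 RPKM, with Il1rl1 at 0.277, 0 and 0.305 RPKM. In CFU-E the orders differed, with sums of 10.468, 10.533 and 11.093 RPKM and Il1rl1 at 8.737, 7.899 and 9.501 RPKM. In stress spleen BFU-E the sums were 5.79, 8.83 and 15.4 RPKM in the libraries where Il1rl1 had 1.282, 1.62 and 2.154 RPKM. In BM, the library with 91 Il1rl1 counts, whose RPKM column carries no number but follows its counts, was the one with 75.5 RPKM in the list, of which Mcpt8 made up 28.5 RPKM and the basophil protease Prss34 33.8 RPKM; the other BM libraries had sums of 8.38 and 3.22 RPKM and 9 and 0 Il1rl1 counts. The part of mast cell and basophil transcripts in the Il1rl1 values of MPP, BFU-E and CFU-E was not tested.

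**Figure D2:**
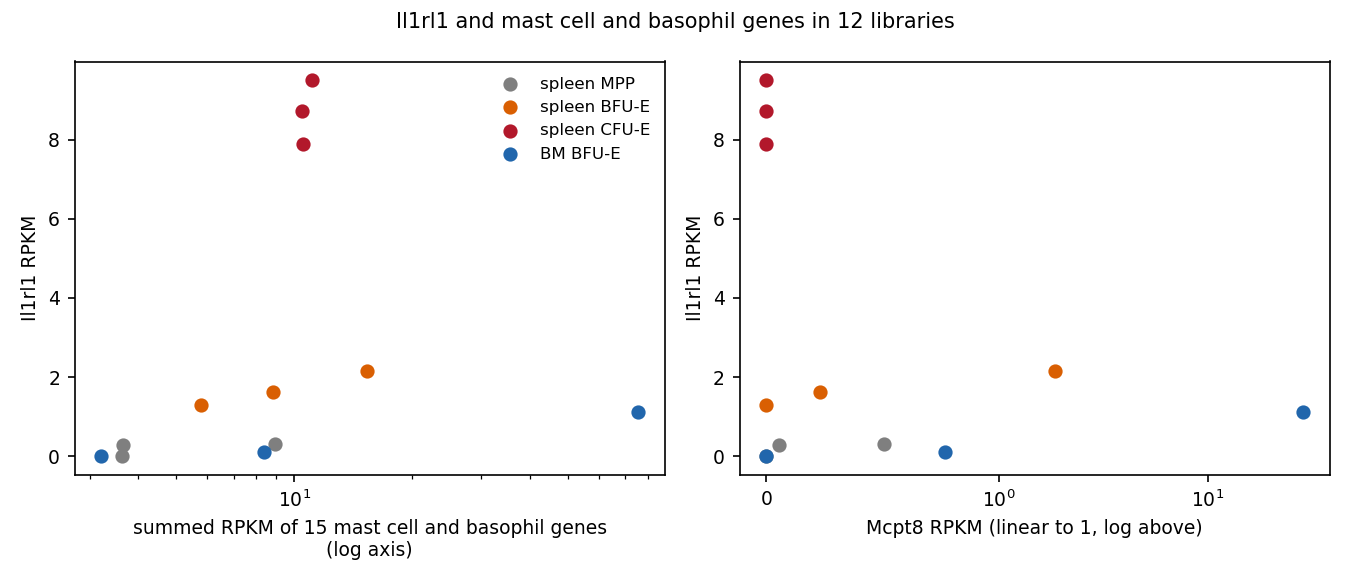
Il1rl1 RPKM (y axis) in the 12 libraries against the summed RPKM of 15 mast cell and basophil genes (left, log axis) and against Mcpt8 RPKM (right, linear to 1 and logarithmic above). The 3 CFU-E libraries have the highest Il1rl1, with Mcpt8 listed at 0 and list sums of 10.5 to 11.1 RPKM. The BM library with 75.5 RPKM in the list is the BM library highest in Il1rl1.

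Markers of the other cells that carry ST2 were in part at 0. Of 9 eosinophil genes, Epx was listed at 0 in every library and Prg2 reached at most 0.879 RPKM. The summed level of the list was 1.46 to 3.49 RPKM in MPP, 1.53 to 2.20 RPKM in BFU-E, 3.64 to 4.32 RPKM in CFU-E and 0 to 1.605 RPKM in BM BFU-E, and so was highest in CFU-E, as Il1rl1 was. In CFU-E 8 of the 9 genes were listed at 0 in all libraries, and the sum was that of Siglecf (4.055, 4.322 and 3.637 RPKM). Its part in the Il1rl1 values was not tested. Il7r, of innate lymphoid cells, reached at most 0.329 RPKM, and the T cell gene Cd3e was listed at 0 throughout, although Foxp3, which marks regulatory T cells, was read at 1.043 to 6.151 RPKM and Gata3 at 0.690 to 3.382 RPKM. Summed macrophage genes were 28.1 to 56.2 RPKM in BM BFU-E and at most 11.3 RPKM in any spleen library. MPP and CFU-E carried markers of their labels. Hlf, a multipotent progenitor gene, was at 8.447 to 10.856 RPKM in MPP and at most 4.579 RPKM elsewhere. The erythroid factor Klf1 was at 46.1 to 64.2 RPKM in CFU-E and at most 17.8 RPKM elsewhere. Ly6a, the Sca-1 antigen, was at 10.03 to 11.5 RPKM in MPP and at most 2.293 RPKM elsewhere. The MPP title Sca-pos points to a sort on that antigen, so its level is no separate mark of the label. The BFU-E labels were less clearly marked. Summed over 10 erythroid genes, the level was 68.9 to 84.1 RPKM in stress spleen BFU-E and 50.2 to 84.0 RPKM in BM BFU-E, beside 42.7 to 59.8 RPKM in MPP and 463.0 to 509.3 RPKM in CFU-E. Epor, the erythropoietin receptor, had 6.38, 5.239 and 8.623 RPKM in stress spleen BFU-E and 0.767, 0.931 and 2.688 RPKM in BM BFU-E. In MPP it had 6.334, 11.374 and 6.897 RPKM, so it did not set stress spleen BFU-E apart from MPP. Megakaryocyte genes summed to 434.9 to 521.2 RPKM in stress spleen BFU-E and 651.2 to 889.7 RPKM in BM BFU-E, among them the platelet factor Pf4 at 213.9 to 274.5 RPKM and 412.8 to 562.5 RPKM, and monocyte and granulocyte genes to 171.3 to 251.6 RPKM and 207.3 to 447.7 RPKM. The part of these other cells' transcripts in the values of the members was not tested. Totals were 5937778 to 13197159 counts per spleen library over all genes, and 6758871 to 9463498 per BM library over the genes that the authors kept.

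Around the members, a list of 82 gene symbols of the IL-1 receptor family and its pathway was read by role, of which 77 were found in the spleen table. Among the ligands 10 of 15 symbols were found, and in the other roles every symbol was. Genes with a mean of 50 counts or more were tested. Over the 47 that passed in the spleen populations, 1 rose and 1 fell in BFU-E over MPP, where edgeR called 4.13% of all genes. In CFU-E over BFU-E, 6 rose and 6 fell, against 21.1% of all genes called, and in CFU-E over MPP, 5 rose and 12 fell, against 28.8% of all genes. Their median log2 fold changes were 0.00, -0.12 and -0.12 in these contrasts, beside a median of 0.00 over all genes in each. In stress spleen BFU-E over BM BFU-E, edgeR called 0 of 51, beside 0.112% of all genes. Of the 51, 7 had an unadjusted edgeR p under 0.05, beside 9.84% of all genes. The median was 0.06 beside 0.01 over all genes. DESeq2 called 6 of 50, beside 685 of 10540 genes.

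No ligand passed the filter on counts. Il33 itself was listed at 0 in all 12 libraries. The most abundant ligands were Il1b, at 0.273, 0.545 and 1.57 RPKM in MPP, 1.74, 1.481 and 0.481 RPKM in BFU-E and 0 in each CFU-E library, and Il18, which reached 2.931 RPKM in an MPP library and at most 0.78 RPKM in BFU-E and CFU-E. Every BFU-E and CFU-E library of stress spleen held transcripts of both receptor chains, while Il33 was listed at 0. Il1rl1 itself had 0 counts in the second MPP and the third BM BFU-E library.

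Among the other receptors, 3 of 8 were tested and all 3 fell in CFU-E over MPP, where Il1rl1 was higher in CFU-E. In that contrast edgeR called 28.8% of all genes in either direction, 12.7% being called higher. Il1r1, the signalling receptor for IL-1, had 1.592, 1.026 and 2.105 RPKM in MPP, 1.378, 1.12 and 0.842 RPKM in BFU-E and 0.242, 0.048 and 0.284 RPKM in CFU-E. It fell in CFU-E over BFU-E, with a log2 fold change of -2.50 (SE 0.62, edgeR adjusted p = 0.0059), and in CFU-E over MPP, at -2.98 (SE 0.63, edgeR adjusted p = 0.0012). Il18rap, the accessory chain of the IL-18 receptor, fell in CFU-E over MPP (-1.96, SE 0.57, edgeR adjusted p = 0.013), with 0.732, 0.504 and 0.176 RPKM in CFU-E and 1.294, 2.113 and 2.071 RPKM in MPP. Its adjusted p was 0.052 in edgeR without the third CFU-E library. Sigirr, an inhibitory member of the family, fell in CFU-E over MPP (-1.61, SE 0.43, edgeR adjusted p = 0.0073).

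Of the 9 listed neighbours of Il1rl1 on chromosome 1, 3 were tested, and all 3 fell in CFU-E over MPP, beside 28.8% of all genes called in either direction. They were Il1r1 and Il18rap, above, and the kinase Map4k4, which had 7.569, 8.453 and 9.344 RPKM in CFU-E and 21.2, 15.7 and 18.2 RPKM in MPP (-1.07, SE 0.15, edgeR adjusted p = 9.8e-06). Map4k4 had already fallen in BFU-E over MPP (-0.76, SE 0.15, edgeR adjusted p = 0.0030). Il18r1, which begins just after Il1rl1 ends, did not pass the filter; it had 0.571, 0.027 and 0 RPKM in BFU-E and 0, 0 and 0.057 RPKM in CFU-E. Il1rl2, the IL-36 receptor gene upstream, did not pass either, with 1.137, 0.15 and 0.311 RPKM in BFU-E and 0.645, 0 and 0.104 RPKM in CFU-E.

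Most of the signalling genes downstream of the receptor were read in every population. At least 1 RPKM in a library was reached by 11, 10, 11 and 11 of 11 adaptors and kinases in MPP, BFU-E, CFU-E and BM BFU-E, and by 8, 8, 8 and 7 of 8 NF-kB genes, with Relb at 0, 0.06 and 0 RPKM in BM BFU-E. Myd88, the adaptor, had 28.1, 21.6 and 21.2 RPKM in BFU-E and 14.9, 17.9 and 8.81 RPKM in CFU-E. It fell in CFU-E over BFU-E (-0.76, SE 0.24, edgeR adjusted p = 0.028), and that adjusted p rose to between 0.056 and 0.13 without the first BFU-E, the second BFU-E, the first CFU-E or the third CFU-E library. Tab2, which links TRAF6 to the kinase TAK1, fell in the same contrast (-0.44, SE 0.11, edgeR adjusted p = 0.0042). The other 8 tested adaptors and kinases did not pass there; in CFU-E over MPP Irak4 fell as well (-0.78, SE 0.23, edgeR adjusted p = 0.013). Its adjusted p was 0.078 without the first MPP library and 0.063 without the first CFU-E library.

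Of the 21 genes of NF-kB and its brakes, 4 rose and 1 fell in CFU-E over BFU-E, a share of 23.8% near the 21.1% of all genes called. The subunits Nfkb2 and Rela rose over BFU-E by 0.92 (SE 0.21, edgeR adjusted p = 0.0033) and 0.52 (SE 0.13, edgeR adjusted p = 0.0064), 2 of the 8 NF-kB genes tested, and the other 6 did not pass. Nfkbia, the inhibitor that NF-kB itself induces, had 130.4, 161.1 and 104.7 RPKM in CFU-E and 68.0, 66.1 and 56.0 RPKM in BFU-E (1.07, SE 0.14, edgeR adjusted p = 5.0e-06). The ubiquitin editor Tnfaip3 (A20) had 29.8, 48.0 and 25.9 RPKM in CFU-E and 14.2, 19.3 and 16.7 RPKM in BFU-E (1.01, SE 0.20, edgeR adjusted p = 0.00078). Irak3, a kinase-dead brake on IRAK signalling, went the other way, falling with a log2 fold change of -1.07 (SE 0.26, edgeR adjusted p = 0.0044). Of the 13 brakes, the other 10 did not pass in that contrast.

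Of 9 MAP kinase genes, Mapk9 (JNK2) rose in CFU-E over BFU-E by 0.81 (SE 0.17, edgeR adjusted p = 0.0017), and Mapk3 (ERK1) fell in CFU-E over MPP (-0.74, SE 0.22, edgeR adjusted p = 0.016). The Mapk3 call was lost without the third MPP or the first CFU-E library, at adjusted p of 0.054 and 0.076 in edgeR. Of 11 cytokine and chemokine targets known from mast cells, none passed the filter in the spleen populations. The most abundant of them were Tnf, at most 2.972 RPKM in the spleen libraries, and the chemokine Cxcl2, at most 2.844 RPKM there.

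All 4 transcription factors listed for the Il1rl1 locus and for mast cells passed in CFU-E over MPP, though Mitf did not without any of 4 of the 6 libraries. Of the 4, 1 rose and 3 fell there, beside 28.8% of all genes called in either direction. Gata1, the erythroid GATA factor, had 21.7, 14.9 and 26.2 RPKM in MPP, 35.6, 28.0 and 34.8 RPKM in BFU-E and 48.6, 44.7 and 43.0 RPKM in CFU-E. It rose in BFU-E over MPP by 0.67 (SE 0.16, edgeR adjusted p = 0.020), in CFU-E over BFU-E by 0.49 (SE 0.16, edgeR adjusted p = 0.031) and in CFU-E over MPP by 1.15 (SE 0.16, edgeR adjusted p = 1.3e-05). The CFU-E over BFU-E call of Gata1 was lost without any 1 of the 6 libraries, with adjusted p of 0.060 to 0.14, and the BFU-E over MPP call without 4 of the 6, with adjusted p of up to 0.097. Gata2 fell in CFU-E over BFU-E (-0.65, SE 0.11, edgeR adjusted p = 0.00010), and Spi1 (PU.1), a myeloid factor, did so too (-2.00, SE 0.33, edgeR adjusted p = 0.00011). Mitf, a mast cell factor, fell in CFU-E over MPP (-1.77, SE 0.62, edgeR adjusted p = 0.038), with an edgeR adjusted p of up to 0.18 without the second MPP, the third MPP, the second CFU-E or the third CFU-E library.

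**Figure D3:**
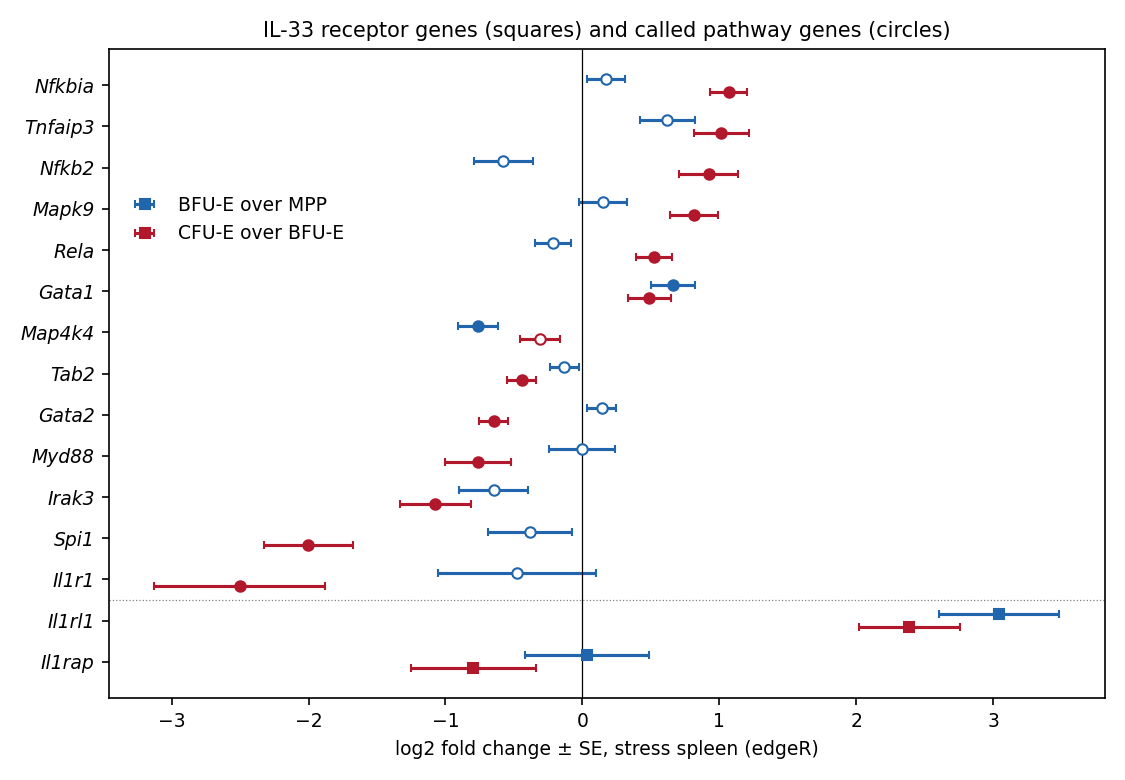
Log2 fold change ± SE (x axis, edgeR) in stress spleen for BFU-E over MPP (blue) and CFU-E over BFU-E (red). Squares are Il1rl1 and Il1rap, given without a test, and circles are the pathway genes called in either contrast, filled where the adjusted p is under 0.05; Il1rl1 is above 2 in both contrasts and Il1r1 is at -2.50 in the second.

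No accessible region was named after Il1rl1 in BFU-E of either tissue, and none lay inside the gene. A region called in stress spleen BFU-E alone, at the promoter of Il18r1, began at 40465438, just after Il1rl1 ends. The stretch without a called region around the Il1rl1 start ran for 105374 bp in stress spleen BFU-E and 113327 bp in BM BFU-E. From the downstream start the nearest region was 25809 bp away in stress spleen BFU-E and 30143 bp away in BM BFU-E, and from the upstream start 35868 and 40202 bp. Genes without a region of their name made up 7.38% of the 10262 genes with a mean of at least 50 counts in stress spleen BFU-E, where Il1rl1 had 200.7, and 25.9% of all 24072 genes. In BM the share was 36.1% of all genes; Il1rl1 was under a mean of 50 counts there. The promoters of such expressed genes overlapped a region in 95.3% of 7899 cases in stress spleen BFU-E. No ATAC-seq data of MPP or CFU-E were analysed here, so the population with the highest Il1rl1 level has no such reading.

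Il1rap had an accessible promoter in both tissues. The region was chr16:26581123-26582431 in stress spleen BFU-E and chr16:26581173-26582432 in BM BFU-E, both across the start and both at the authors' highest score of 1000. A further region in intron 4 was in both lists, chr16:26689713-26690131 in stress spleen BFU-E, with a score of 1000, and chr16:26689646-26690063 in BM BFU-E, with 876. One more, chr16:26691314-26691711, also in intron 4, was called in stress spleen BFU-E alone, with a score of 497 near the lowest of 415 in the list. The annotation names both intron regions after Gm20319. The central 300 bases of the promoter region held 1 match to an E-box and GATA composite (CTG, any 9 bases and GATAA), found in 2.04% of stress spleen and 1.87% of BM regions.

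From Il1rl2 to Il18r1 there were 7 regions in stress spleen BFU-E and 4 in BM BFU-E, a ratio of 1.75 that is also the ratio of the lengths of the whole lists, 61661 against 35142. All 4 BM regions overlapped a stress spleen one, and the 3 that were in the stress spleen list alone lay at the promoter of Il18r1 (chr1:40465438-40465987, score 722) and as a pair in intron 9 of Il1rl2. The deposit holds 1 merged list per tissue without values per library, so no test of a region between tissues was possible. The pair is shown because these are the nearest stress spleen regions upstream of Il1rl1, 80.4 and 79.6 kb before its downstream start, and each holds a GATA run (central 300 bases, GRCm38.p6, plus strand, GATA letters in capitals).
Il1rl2 intron 9, first region, chr1:40358852-40359151: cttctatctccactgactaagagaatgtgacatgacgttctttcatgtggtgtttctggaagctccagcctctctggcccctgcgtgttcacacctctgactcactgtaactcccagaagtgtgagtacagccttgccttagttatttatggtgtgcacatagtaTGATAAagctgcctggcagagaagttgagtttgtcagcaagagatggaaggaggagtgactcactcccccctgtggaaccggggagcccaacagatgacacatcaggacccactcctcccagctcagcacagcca
Il1rl2 intron 9, second region, chr1:40359748-40360047: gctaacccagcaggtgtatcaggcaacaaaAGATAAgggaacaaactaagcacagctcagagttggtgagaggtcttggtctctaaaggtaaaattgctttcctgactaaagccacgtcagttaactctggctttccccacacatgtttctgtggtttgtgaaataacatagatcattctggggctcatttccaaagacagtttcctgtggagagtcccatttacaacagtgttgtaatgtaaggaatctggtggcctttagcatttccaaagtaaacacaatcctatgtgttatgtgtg
The first, chr1:40358764-40359239 with a score of 758, held TGATAA once and the AP-1 letters TGANTCA at 2 places. The second, chr1:40359731-40360063 with a score of 939, held AGATAA, the RUNX letters TGTGGTT and the NF-kB letters once each. Over all stress spleen regions, 16.2% held AGATAA, 11.6% TGATAA, 10.8% TGANTCA, 12.7% the RUNX letters and 20.2% the NF-kB letters in their central 300 bases. Whether the pair bears on Il1rl1 was not tested.

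**Figure D4:**
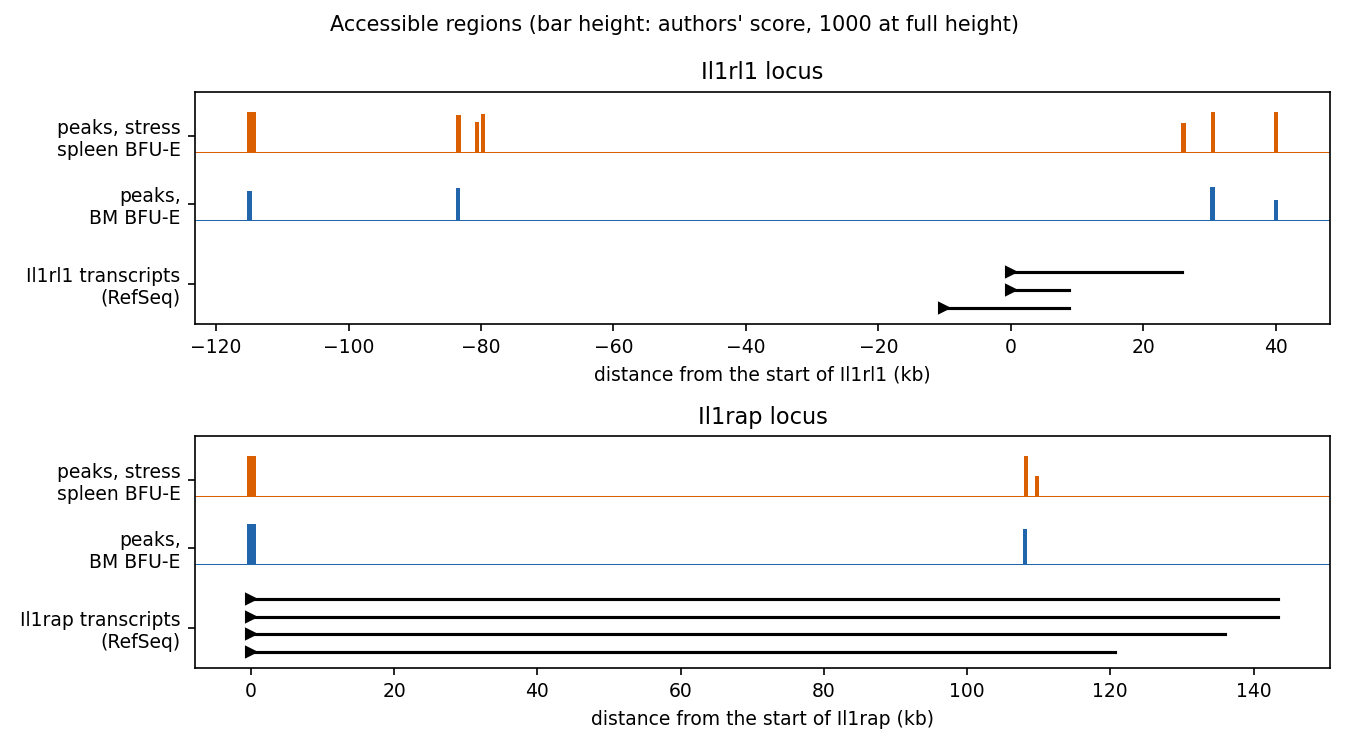
Accessible regions of stress spleen BFU-E (orange) and BM BFU-E (blue) and RefSeq transcripts (black, arrow at the start) by distance in kb from the start of Il1rl1 (top) and Il1rap (bottom); bar height is the authors' score, and narrow regions are widened to be seen. No called region overlaps the Il1rl1 transcripts in either list, though a stress spleen one begins just after the gene ends. Both lists have a bar of score 1000 at the Il1rap start.

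Genes whose levels were most like those of the members were ranked by Pearson's r on log2(RPKM + 1) over the 12 libraries, which fall into 4 populations, as a description. For Il1rl1 these were Abcb4 (r = 0.970), Hdac7 (0.963), C5ar2 (0.949), Gm15915 (0.942) and the red cell ankyrin Ank1 (0.940), among 11627 genes. Over the 9 spleen libraries alone the leading genes included Aqp1 (r = 0.994), Abcb4 (0.992), Ugcg (0.992) and Car1 (0.989), with 1 gene of the first 5 kept. Aqp1 and Car1 encode a water channel and a carbonic anhydrase of red cells; Car1 had 0.506, 0.698 and 3.221 RPKM in MPP, 13.0, 11.4 and 15.3 RPKM in BFU-E and 291.5, 306.3 and 287.5 RPKM in CFU-E. For Il1rap the leading gene was Cep63 (r = 0.917), followed by Ttc14 (0.889), 4930509E16Rik (0.887), Cd96 (0.886) and Znrd1as (0.880), and none of the 5 was kept over the spleen libraries alone, where Stx17 (r = 0.977) led. The 12-library ranking uses the BM columns that do not follow the counts.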

How the data were processed

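RNA was sequenced from 4 populations and accessible chromatin from 2, with 3 libraries each. The deposited count tables hold raw counts per gene, made by the authors with HOMER over exons of 1 transcript per gene, per the file headers; the counting strand is not stated. The deposited RPKM tables hold values that the authors scaled to gene length and library size. The deposited peak lists hold merged peaks of each population, with mm10 coordinates and 1 score for each peak; the caller is not given in the sources used here. The tools were HOMER 4.8, Bowtie2 2.3.4.2, STAR 2.6.0b-1 and DESeq2, per the submitters' processing notes.

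Group differences in counts were fitted with edgeR 4.0.16 under R 4.3.3 (TMM, quasi-likelihood F test, Benjamini-Hochberg adjustment over all genes, threshold 0.05): the 6 BFU-E libraries on the authors' 10702 genes, and the 9 spleen libraries in 1 fit, on 10166 genes that averaged at least 50 counts, which kept both members. The SE is the log2 fold change divided by the square root of F. CPM are counts scaled with TMM factors. The fits were tested on simulated data. The members and lists were chosen with earlier results of these data known. Genes were named by rule: the members, up to 4 called genes per role, contrast and direction, the 2 most abundant of a role without a call, the defining markers, and the 5 most alike genes; not all of them are printed, and 1 is not reported here. Identical intervals in a peak list were merged, and regions overlapping by at least 1 bp were called shared. Motifs were searched on both strands in the central 300 bases of regions and 250 bases before RefSeq starts; besides those spelled out with the results they were CCNCNCCC (KLF), CCGGAAG (ETS) and AGGAAGT (PU.1). They may overlap each other. Alternatives were DESeq2 1.42.0 (with a local dispersion trend for the BFU-E libraries, where the parametric one did not converge reliably), limma 3.58.1 on log2(RPKM + 1), a replicate block, other filters, scores and overlaps, and leaving out each library.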

Additional observations from a re-analysis of the deposited data

How the results depend on the processing

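Of 142 recomputed values, 129 were classed as unchanged, 10 as moved and 3, all of Il1rap over BM, turned sign. Some of the unchanged values could not have changed. No stricter score or overlap can lower the 0 peaks of Il1rl1, and the Il1rap peaks have the highest score of 1000. The stress spleen BFU-E levels of the members are the same values in both RPKM tables. For members over BM, unchanged meant the same direction and side of the threshold. For their other fold changes and levels it meant a shift below the spread between libraries. Counts of called or alike genes had to stay within a fixed ratio, and numbers of peaks had to be equal. Il1rap in BFU-E over MPP, at 0.03, was also below 0 without the second BFU-E library (-0.13) or the second MPP library (-0.24). On the log2(RPKM + 1) scale, where a pseudocount compresses low genes, the log2 fold change of Il1rl1 was 1.17 for BFU-E over MPP, 1.86 for CFU-E over BFU-E and 3.03 for CFU-E over MPP. Leaving out 1 library at a time, it ranged over 2.599 to 3.40, 2.205 to 2.602 and 4.99 to 5.79 in these contrasts, and over 1.44 to 5.03 for stress spleen BFU-E over BM BFU-E; its adjusted p there was 0.056 to 1 over all alternatives. The lowest of these came from limma on the 12-library RPKM table, which called 7691 of 11628 genes in that comparison and whose BM columns do not follow the counts. Il1rap over BM, without a call, was at 0.52 with a replicate block, at 0.10 in limma on the BFU-E RPKM table (chosen after seeing the data) and at -0.77 to 0.79 without 1 library. Its ranges were -0.24 to 0.24 for BFU-E over MPP, -1.18 to -0.44 for CFU-E over BFU-E and -1.14 to -0.40 for CFU-E over MPP. Between stress spleen and BM BFU-E, same-numbered libraries did not deviate together (correlations of -0.034 to -0.022). Between the spleen populations they deviated together weakly (0.015 to 0.134), against -0.093 to 0.030 for unlike numbers. Nothing in the labels says whether equal numbers mean a shared animal, so the replicate block is no test paired by animal. The main fits used no block. With the block the log2 fold change of Il1rl1 was 3.81 over BM. It was 3.08, 2.40 and 5.48 in BFU-E over MPP, CFU-E over BFU-E and CFU-E over MPP. The block called 3 genes over BM and 476, 2221 and 2972 in these contrasts, where edgeR without it called 12, 420, 2145 and 2924. DESeq2 called 685 of 10540 genes over BM where edgeR called 12 of 10702. Among them were 6 of 50 pathway genes, where edgeR called 0 of 51: Myd88, Nfkb1 and Relb higher, Ccl3, Map4k4 and Spi1 lower. Relb was at 0, 0.06 and 0 RPKM in BM, and Ccl3 at 0, 0.308 and 0 RPKM in stress spleen BFU-E. Each thus passed the authors' filter on counts through the population in which it was high. Limma on the 12-library RPKM table called 35 of 52 pathway genes over BM, and 0, 3 and 10 of 52 in BFU-E over MPP, CFU-E over BFU-E and CFU-E over MPP, where edgeR called 2, 12 and 17 of 47. Of all 11628 genes limma called 7691 over BM and 61, 605 and 1015 in those contrasts. The replicate block ended the Mitf call in CFU-E over MPP (edgeR adjusted p = 0.085). DESeq2 called 4 of 47 pathway genes in BFU-E over MPP, beside 619 of 10162 genes. There edgeR called 2 of 47, beside 420 of 10166 genes, and 1 to 2 pathway genes without 1 library. Without 1 library, 0 were called over BM, 10 to 12 in CFU-E over BFU-E and 14 to 16 in CFU-E over MPP. Of the 5 genes most like Il1rl1, 1 was shared over the spleen libraries alone and 3 with a pseudocount of 0.1; for Il1rap 0 and 4 were shared. The causes of these shifts were not tested. Il1rl1 had 0 to 91 counts per BM library and 0 to 32 per MPP library, so depth limits those levels.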
